A study of Mus musculus with 7 samples.

Results

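Growth hormone pulse-responsive liver genes are hepatic genes whose transcription depends on how growth hormone reaches the liver, in pulses or as a steady supply. A set of 9 such genes was examined by symbol, out of 51426 genes counted in each library: Hsd3b5, Elovl3, Slco1a1, Hao2, A1bg, Cux2, Bcl6, Prlr and Hsd3b2. The livers came from male mice labelled as strain C57BL/6J, and every mouse had received a high-fat diet (HFD) for 16 weeks from young adulthood. The 3 WT mice carried intact Tet1, and the 4 TET1 KO mice lacked TET1, an enzyme that oxidises 5-methylcytosine in DNA, in the whole body. The study bred whole-body deletions both from a germline knockout line, B6;129S4-Tet1tm1.1Jae/J, and by β-actin Cre, and it writes the genotypes of the sequenced livers in the notation of the germline line. That line carries a mixed B6 and 129S4 background by its name, whereas the labels give C57BL/6J for every mouse, and its backcrossing is not given in the sources used here. Whether the genotypes also differed in strain background was not tested. The loss of TET1 was therefore not limited to hepatocytes, and it extended to the pituitary and hypothalamus, from which growth hormone secretion is set. No chow-fed mice and no females are among the 7 samples, and the labels give neither the age nor the hour at which the livers were taken. The comparison asks whether these genes differed between the genotypes by more than they differed between mice of the same genotype.

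In the male rodent, the pituitary releases growth hormone in discrete pulses with low levels between them, whereas the female pattern is closer to continuous. Each pulse acts through the growth hormone receptor and JAK2 to phosphorylate STAT5b, which enters the hepatocyte nucleus, binds DNA and directs male-biased and female-biased gene programs, with Hnf4a and other liver factors. Hsd3b5, Elovl3 and Slco1a1 are known as male-biased liver genes, A1bg, Cux2 and Prlr as female-biased ones. Bcl6 and Cux2 encode DNA-binding repressors, Bcl6 being the male-biased counterpart that competes with STAT5 for its sites.

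Library sizes were 15005277 to 22746138 counts, and they overlapped between the genotypes. Levels are given as CPM, counts scaled to library size with the TMM correction for composition, and before that correction 1 CPM equals 15 counts in the smallest library. Tet1 itself had 1, 4 and 1 counts in WT and 2, 1, 4 and 1 counts in TET1 KO livers, so that its mRNA was too scarce to check the genotype labels. Xist had 2 to 4 counts and the Y-linked Ddx3y 904 to 1561 counts in the 7 libraries of these males. The 8 hepatocyte markers examined, among them Alb and Apoa1, summed to between 67100 and 87300 CPM in WT and between 77700 and 85300 CPM in TET1 KO livers. Of the 9 lists of cell type markers examined, the cholangiocyte list was the one in which no value was shared between the groups, at 29.8 to 38.0 summed CPM in WT and 46.3 to 68.5 in TET1 KO livers. Libraries also stood apart singly. TET1 KO replicate 2 had 18.2 summed CPM of 4 adipocyte markers against 0.186 to 3.25 in the other libraries, and WT replicate 3 had 31.8 summed CPM of 4 neutrophil markers against 1.31 to 8.31. None of the markers in these lists that could be tested was called different between the genotypes, and no defining marker was at 0 in all libraries.

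Several of the genes lie next to one another (positions in GRCm38.p6, RefSeq). Hsd3b5 (ENSMUSG00000038092, chr3:98618636-98645534), Hsd3b2 (ENSMUSG00000063730, chr3:98711107-98724543) and Hao2 (ENSMUSG00000027870, chr3:98874519-98895376), all on the minus strand, fall within 276.7 kb, with Hsd3b3, Hsd3b6 and Hsd3b1 between Hsd3b2 and Hao2. Slco1a1 (ENSMUSG00000041698) is at chr6:141907281-141946962, Elovl3 (ENSMUSG00000038754) at chr19:46131897-46135694, Cux2 (ENSMUSG00000042589) at chr5:121857962-122050415 and Bcl6 (ENSMUSG00000022508) at chr16:23965050-23988866. Prlr (ENSMUSG00000005268) and A1bg (ENSMUSG00000022347) share chromosome 15, at chr15:10177238-10349190 and chr15:60917589-60921270.

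RefSeq gave 12 promoters for 8 of the 9 genes, and the 250 bases before each start were searched on both strands for 4 short motifs. These were the STAT motif TTCNNNGAA, which reads the same on both strands, ATTGAT for HNF6 (the product of Onecut1), GTTAAT for HNF1 and the TATA motif TATAAA. Among 32851 mouse promoters of the same length, 7.02% held the STAT motif, 6.72% the HNF6 motif, 6.43% the HNF1 motif and 12.4% the TATA motif. The STAT motif was found in 4 promoters of 3 genes, Bcl6, Prlr and A1bg. It occurred 3 times before the second Bcl6 start, a number reached by 9 of the 32851 promoters. Hsd3b5 and Hsd3b2 held none of the 4 motifs in this window, which says nothing of sequences farther away. The promoters of the 3 genes with the largest fold differences and the stretch of the second Bcl6 promoter that spans its STAT matches are shown, 5′ to 3′ on the minus strand of GRCm38.p6, with matches in capitals. They are Slco1a1 (chr6:141946963-141947212, TATA matches read on the other strand), Hsd3b5 (chr3:98645535-98645784), Hao2 (chr3:98893231-98893480, HNF1 matches, within the annotated span of the gene) and Bcl6 (chr16:23981363-23981451, STAT matches). The matches overlapped no match of another of the 4 motifs.
Slco1a1: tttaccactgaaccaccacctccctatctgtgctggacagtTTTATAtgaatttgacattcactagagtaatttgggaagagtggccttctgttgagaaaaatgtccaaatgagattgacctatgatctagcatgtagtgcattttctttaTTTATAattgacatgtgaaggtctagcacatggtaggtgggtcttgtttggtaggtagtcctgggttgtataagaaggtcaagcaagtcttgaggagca
Hsd3b5: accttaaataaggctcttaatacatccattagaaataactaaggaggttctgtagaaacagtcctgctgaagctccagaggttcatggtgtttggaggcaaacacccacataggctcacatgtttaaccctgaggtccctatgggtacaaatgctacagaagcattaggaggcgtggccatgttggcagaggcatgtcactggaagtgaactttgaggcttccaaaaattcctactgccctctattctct
Hao2: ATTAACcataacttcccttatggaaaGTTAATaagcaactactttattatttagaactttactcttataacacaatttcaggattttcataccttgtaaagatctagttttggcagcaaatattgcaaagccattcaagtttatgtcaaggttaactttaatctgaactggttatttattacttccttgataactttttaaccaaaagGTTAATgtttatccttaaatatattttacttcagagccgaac
Bcl6: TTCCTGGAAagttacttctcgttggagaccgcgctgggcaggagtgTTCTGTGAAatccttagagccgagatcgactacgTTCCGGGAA

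Of the 9 genes, 8 had enough counts to be tested, and 1 of them, Slco1a1, passed the quasi-likelihood test of edgeR, called at an adjusted p under 0.05, with higher values in TET1 KO livers. Among all genes, 298 of 14754 tested genes passed (2.02%), 129 of them higher (0.874%) and 169 lower (1.15%). Scaling by library size alone gave 107 higher and 312 lower genes. Before adjustment 6 of the 8 genes had p under 0.05, namely Slco1a1, Hsd3b5, Hao2, Elovl3, Hsd3b2 and Bcl6, where 26.3% of all tested genes did. No value was shared between the genotypes for Hsd3b5, Slco1a1 and Elovl3, a pattern met in 22.5% of all tested genes. The 9 genes were chosen with earlier results of these data known, so these counts are a description and no independent evidence. The plot of values by mouse shows where the livers fell apart and where they overlapped.

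**Figure D1:**
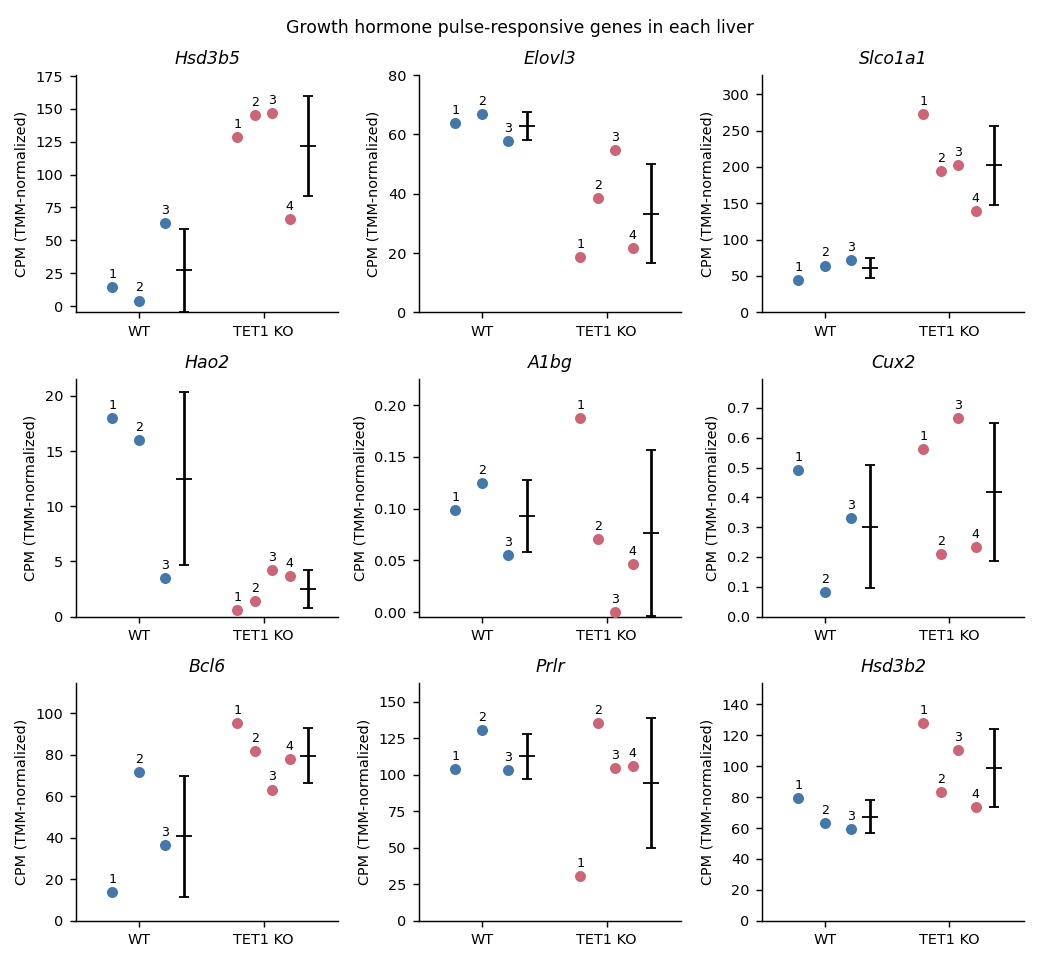
CPM (TMM-normalized, linear axes) of the 9 genes in each liver, with WT mice in blue and TET1 KO mice in red, the replicate number above each point, and the mean with its SD (3 WT, 4 TET1 KO) beside each group. Slco1a1 and Hsd3b5 were higher in all 4 TET1 KO livers than in any WT liver and Elovl3 was lower in all 4, while the other genes overlapped, and the Hsd3b5 value of WT replicate 3, 63.2 CPM, lay next to the 66.0 CPM of TET1 KO replicate 4.

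Slco1a1, which encodes a sinusoidal organic anion transporter (OATP1A1) that takes up bile salts and steroid conjugates, rose in TET1 KO livers. It was at 45.1, 64.4 and 72.0 CPM in WT replicates 1 to 3 and at 272.5, 194, 202 and 139.9 CPM in TET1 KO replicates 1 to 4. The lowest TET1 KO liver was thus still above the highest WT liver. The means were 60.5 ± 13.9 CPM (SD, n = 3) and 202 ± 54.5 CPM (SD, n = 4), and the fold was 3.34 (95% interval 2.33 to 4.78, log2 fold change 1.74 with a standard error, SE, of 0.23, adjusted p = 0.00736). In bulk liver, a single gene cannot tell more RNA per hepatocyte from more hepatocytes. The summed hepatocyte markers, at 67100 to 87300 CPM in WT and 77700 to 85300 CPM in TET1 KO livers, overlapped between the genotypes. Alb made up most of that sum, and its members did not move alike. Apoa1, at 4280 to 6220 CPM in WT and 9590 to 14200 CPM in TET1 KO livers, and Serpina1a, at 1840 to 2370 and 2520 to 3200 CPM, shared no value between the groups, although none of the 8 markers was called. Without WT replicate 2 the adjusted p was 0.0501 at a log2 fold change of 1.78, and in the other 6 fits that each left out 1 mouse it stayed under 0.05. Its close paralogs could share reads with it, since coding sequences were identical at 88.0% of aligned bases for Slco1a5 and 86.6% for Slco1a4. Slco1a5 had 0 counts in all 7 libraries, and Slco1a6 had at most 1. Slco1a4, a related transporter encoded next to it, was at 67.3, 50.5 and 19.3 CPM in WT and at 23.6, 28.0, 23.2 and 48.5 CPM in TET1 KO livers. That difference did not pass the test, at a log2 fold change of -0.57 (SE 0.37, adjusted p = 0.34).

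Hsd3b5 and Hsd3b2 belong to the 3β-hydroxysteroid dehydrogenase family. Hsd3b5 encodes the male-liver isoform, which acts as a 3-ketosteroid reductase. It was at 14.2, 4.23 and 63.2 CPM in WT and at 129, 145, 147 and 66.0 CPM in TET1 KO livers. Every TET1 KO liver was above every WT liver, but WT replicates 2 and 3 differed by 15.0 times, and WT replicate 3 came close to TET1 KO replicate 4. The fold between the means was 4.48 with a 95% interval of 1.56 to 12.9 (log2 fold change 2.16, SE 0.69), and the adjusted p was 0.0954, so that the gene was not called. Without WT replicate 3 the log2 fold change was 3.71 and the adjusted p 0.00621, whereas without WT replicate 2 they were 1.65 and 0.272, and robust dispersions gave an adjusted p of 0.207.

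Hsd3b2 was at 79.5, 63.0 and 59.7 CPM in WT and at 128, 83.0, 110.4 and 73.8 CPM in TET1 KO livers. Only TET1 KO replicate 4 fell within the WT range, and the log2 fold change of 0.55 (SE 0.20, adjusted p = 0.12) did not pass. Hsd3b3, which shares 95.1% of aligned coding bases with Hsd3b2 and an identical run of 228 bases, had a log2 fold change of 0.07 (SE 0.14, adjusted p = 0.753), with 235 ± 29.3 CPM (SD, n = 3) in WT and 247 ± 15.0 CPM (SD, n = 4) in TET1 KO livers. How reads matching several genes were counted is not given in the sources used here, so the split between Hsd3b2 and Hsd3b3 is uncertain. Hsd3b4, the closest relative of Hsd3b5 with 95.2% of aligned coding bases identical, had 0 counts in every library, and Hsd3b1 and Hsd3b6 had at most 2.

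Hao2, at the far end of the same gene group on chromosome 3, encodes a peroxisomal 2-hydroxyacid oxidase. WT replicates 1 and 2 had 18.0 and 16.0 CPM, but WT replicate 3 had 3.53 CPM, and the TET1 KO livers had 0.626, 1.41, 4.25 and 3.67 CPM. The groups overlapped because of WT replicate 3, the same liver in which Hsd3b5 was highest among WT mice. The TET1 KO level was 0.204 times the WT level (95% interval 0.0832 to 0.499), a log2 fold change of -2.30 (SE 0.59, adjusted p = 0.0648), and was not called. The adjusted p was 0.017 without WT replicate 3, 0.0486 without TET1 KO replicate 4 and 0.028 with no filter on low counts, and it missed the threshold in the other 11 alternatives, by most without WT replicate 2 (0.272). Its liver paralog Hao1 had a log2 fold change of -0.28 (adjusted p = 0.285).

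Elovl3 encodes an elongase of very long chain fatty acids that is male-biased and also follows the time of day. It was at 63.8, 66.8 and 57.7 CPM in WT, a narrow range, and at 18.7, 38.4, 54.6 and 21.6 CPM in TET1 KO livers. Every TET1 KO value was below every WT value, with TET1 KO replicate 3 close to the WT livers. The log2 fold change was -0.91 (SE 0.31, 95% interval of the fold 0.332 to 0.849, adjusted p = 0.104), and the adjusted p ranged from 0.0341 with DESeq2 to 0.344 without WT replicate 2. Its sign was thus the opposite of that of Slco1a1 and Hsd3b5, which are known for the same sex bias. Among the other elongases, Elovl5 fell, with 543 ± 216 CPM (SD, n = 3) in WT and 152 ± 59.1 CPM (SD, n = 4) in TET1 KO livers, at a log2 fold change of -1.84 (adjusted p = 0.0196). It was the 1 gene called lower, and 0 were called higher, among 12 tested paralogs of the 9 genes, against 1.15% and 0.874% of all tested genes, and it lost the call when WT replicate 2 (adjusted p = 0.107), TET1 KO replicate 2 (0.0556) or TET1 KO replicate 3 (0.062) was left out. Elovl2, another of the elongases, was at 294 ± 64.1 and 261 ± 12.7 CPM (SD, adjusted p = 0.506), and the transporter Slco1b2 at 984 ± 214 and 855 ± 73.5 CPM (SD, adjusted p = 0.499). The median log2 fold change of these 12 paralogs was -0.12, against 0.01 over all tested genes.

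The remaining genes showed no difference that passed the test. Bcl6 was at 13.9, 71.8 and 36.6 CPM in WT and at 95.6, 81.8, 63.3 and 77.9 CPM in TET1 KO livers, so that WT replicate 2 lay inside the TET1 KO range. WT livers differed by up to 5.16 times and TET1 KO livers by 1.51 times, and the log2 fold change was 0.96 (SE 0.40, adjusted p = 0.164). It was 0.54 without WT replicate 1 and 1.65 without WT replicate 2, and in none of the 14 alternative fits was the gene called. Prlr, the prolactin receptor, was at 104, 130.4 and 103 CPM in WT and at 30.7, 136, 105 and 106 CPM in TET1 KO livers. TET1 KO replicate 1 alone lay outside the WT range by a wide margin, and without it the log2 fold change turned from -0.25 (SE 0.36, adjusted p = 0.679) to 0.04.

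Cux2, a homeobox repressor, had 10, 2 and 6 counts in WT and 9, 3, 13 and 5 counts in TET1 KO livers. The fit gave 0.52 as log2 fold change, with a 95% interval from -0.94 to 1.98 (adjusted p = 0.637), so that neither a fall nor a rise was detectable at this depth. A1bg, which encodes a secreted plasma glycoprotein, had 2, 3 and 1 counts in WT and 3, 1, 0 and 1 counts in TET1 KO livers. These are at or under a floor of 3 counts in every library, and no fold is given (exact two-sided permutation test on CPM, p = 0.743, where the 35 splits of 7 mice allow no p under 0.0286).

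The plot of log2 fold changes places these 8 genes beside the signalling genes of the growth hormone axis and the liver regulators described further on.

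**Figure D2:**
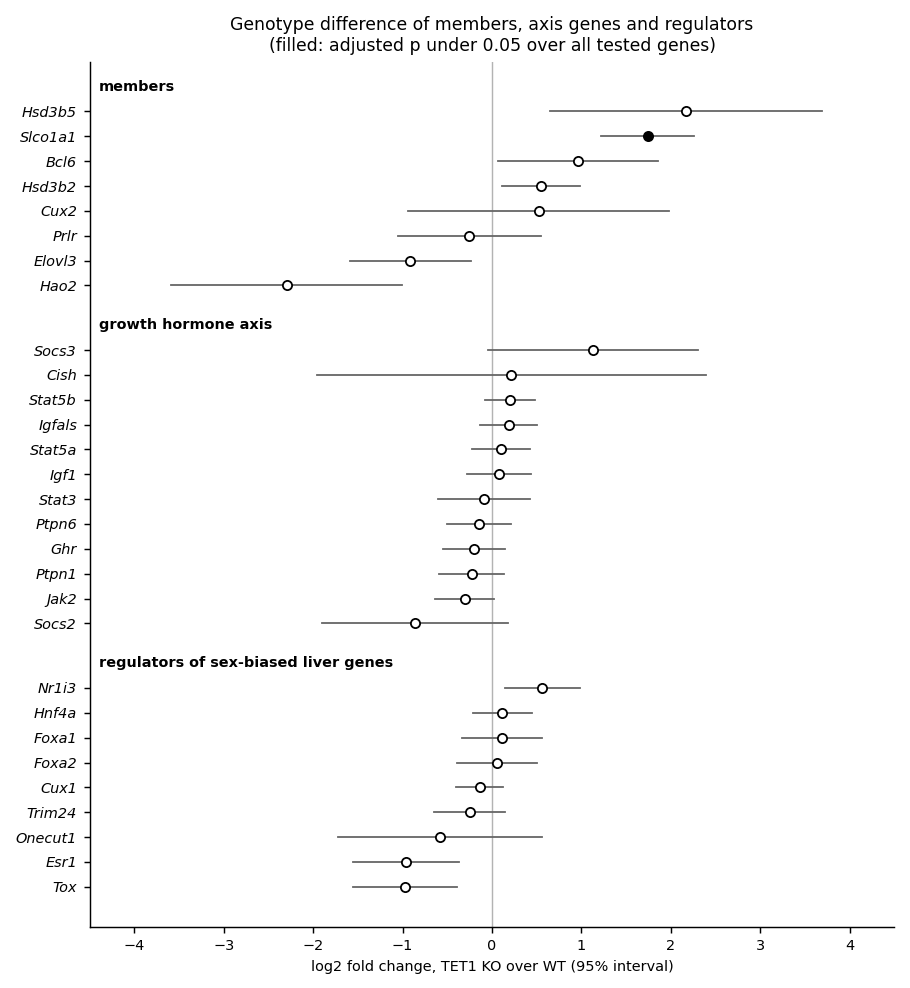
Log2 fold change of TET1 KO over WT livers with its 95% interval (horizontal axis) for the 8 tested genes of the set, 12 growth hormone axis genes and 9 regulators, ordered by fold change within each group; a filled point had an adjusted p under 0.05. Slco1a1 at 1.74 is the filled point, and the widest interval of each group belongs to Hsd3b5, Cish and Onecut1.

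To set the 9 genes against each other, CPM was divided by the exon length of each gene in kilobases. In WT livers Elovl3 had the highest mean, at 33.4 ± 2.46 CPM per kilobase (SD, n = 3). Hsd3b2 at 17.9 ± 2.83, Hsd3b5 at 17.0 ± 19.7 and Slco1a1 at 11.5 ± 2.63 followed, and the spread of Hsd3b5 covered both of its neighbours in this order and Elovl3 as well. Prlr at 7.25 ± 1.01, Hao2 at 6.28 ± 3.93 and Bcl6 at 6.09 ± 4.35 did not differ beyond their spread, and A1bg and Cux2 were at 0.0508 and 0.0377. In TET1 KO livers Hsd3b5 came first, at 75.9 ± 23.7 CPM per kilobase (SD, n = 4), ahead of Slco1a1 at 38.3 ± 10.3 and Hsd3b2 at 26.3 ± 6.64. Slco1a1 and Hsd3b2 overlapped within the spread. Elovl3 followed at 17.7 ± 8.85, which overlapped both Hsd3b2 and Bcl6 within the spread. Bcl6 was at 11.9 ± 1.98, and above Elovl3 in TET1 KO replicates 1 and 4. Prlr was at 6.08 ± 2.89 and Hao2 at 1.25 ± 0.874. Mouse by mouse, Hsd3b5 was ahead of Elovl3 in all 4 TET1 KO livers and in WT replicate 3, at 39.4 against 30.7 CPM per kilobase, and behind it in WT replicates 1 and 2.

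Spread between mice of the same genotype was measured as the standard deviation (SD) of log2 CPM around the genotype means, which for all tested genes had a median of 0.262 and a 95th percentile of 0.739. Hsd3b5 had an SD of 1.30, above that of 99.6% of tested genes. Hao2 had 1.24 (99.4%), Bcl6 0.773 (95.8%), Prlr 0.757 (95.4%) and Cux2 0.75 (95.2%), the last at a level where counting error is large. The genes with smaller spread were Elovl3 at 0.561 (88.4%), Slco1a1 at 0.377 (72.0%) and Hsd3b2 at 0.316 (62.2%). Slco1a1 was thus called with a fold smaller than those of Hsd3b5 and Hao2 and with a smaller spread. The spread was not alike in the genotypes. Hsd3b5 had an SD of 1.94 among WT and 0.549 among TET1 KO livers, and Bcl6 1.19 and 0.245. Elovl3, at 0.108 and 0.719, and Prlr, at 0.193 and 0.964, varied more among TET1 KO livers. With 3 and 4 mice these differences in spread were not tested. In the fits that left out 1 mouse the SD of Hsd3b5 ranged from 0.773, without WT replicate 3, to 1.45, that of Bcl6 was 0.403 without WT replicate 1 and 0.535 without WT replicate 2, and that of Prlr was 0.202 without TET1 KO replicate 1.

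**Figure D3:**
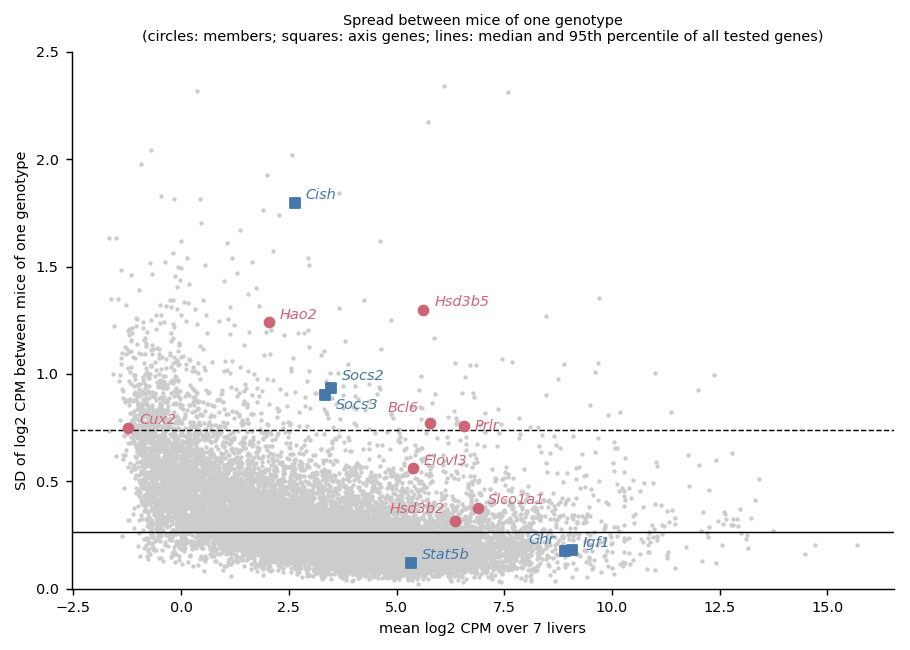
SD of log2 CPM between mice of the same genotype (vertical axis) against mean log2 CPM over the 7 livers (horizontal axis) for 14754 tested genes in grey, with the 8 tested genes of the set as red circles and 6 growth hormone axis genes as blue squares; the solid line is the median of 0.262 and the dashed line the 95th percentile of 0.739. Hsd3b5 and Hao2 stand far above the bulk of genes, Cish higher still, and Stat5b, Ghr and Igf1 below the median.

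Of the 13 genes of the growth hormone axis listed, from the receptor to the inhibitors of its signal, 12 were tested and 0 were called, where 2.02% of all tested genes were. None of the 12 had an unadjusted p under 0.05, against 26.3% of all genes, and DESeq2 called 0, against 9.14% of the 14577 genes to which it gave an adjusted p. With 12 genes, a count of 0 is near the share of edgeR calls over all genes. Ghr, the growth hormone receptor, was at 471, 581 and 526 CPM in WT and at 378, 466, 511 and 478 CPM in TET1 KO livers (log2 fold change -0.20, SE 0.16, adjusted p = 0.436). Igf1, the main endocrine product of growth hormone action, was at 523 ± 65.7 CPM in WT (SD, n = 3) and 550.4 ± 68.8 CPM in TET1 KO livers (SD, n = 4), a log2 fold change of 0.07 (SE 0.16, adjusted p = 0.795) whose sign was not stable. Igfals, which encodes the acid-labile subunit that keeps IGF1 in the circulation, was at 89.5 ± 15.0 and 102 ± 9.93 CPM (SD, adjusted p = 0.421). Stat5b, the transducer of the male pattern, was at 37.3 ± 4.07 and 42.8 ± 2.48 CPM (SD, adjusted p = 0.33). The median log2 fold change of the 12 genes was -0.01.

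The inhibitors Cish, Socs2 and Socs3, which are induced within a short time of STAT activation, are given because of their spread, a choice made after their values were seen. Cish was at 19.4, 3.36 and 8.78 CPM in WT and at 41.8, 2.61, 1.64 and 2.92 CPM in TET1 KO livers. Its SD of log2 CPM was 1.80, above that of 99.9% of tested genes, and TET1 KO replicate 1 was far above every other TET1 KO liver. Socs2 was at 17.6, 9.70 and 26.7 CPM in WT and at 13.9, 6.20, 3.27 and 16.0 CPM in TET1 KO livers, with an SD of 0.936 (98.1%). Socs3 was at 5.76, 4.77 and 12.1 CPM in WT and at 37.1, 11.8, 7.72 and 9.05 CPM in TET1 KO livers, again highest in TET1 KO replicate 1. That liver also had the lowest Prlr, Elovl3 and Hao2 and the highest Slco1a1, Bcl6 and Hsd3b2 of its group. None of the inhibitors passed the test, with adjusted p-values of 0.906, 0.262 and 0.205, and without TET1 KO replicate 1 the log2 fold change of Cish turned from 0.21 to -2.13 (adjusted p = 0.0819).

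Of the 9 regulators of sex-biased liver genes reported here, edgeR called 0 (2.02% of all tested genes), and 3 had an unadjusted p under 0.05, a share near the 26.3% of all genes. DESeq2 called 1 higher and 2 lower, where it called 4.34% and 4.8% of all genes. Esr1, the estrogen receptor alpha, was at 10.7, 14.5 and 18.2 CPM in WT and at 4.95, 11.0, 5.78 and 8.03 CPM in TET1 KO livers (log2 fold change -0.96, adjusted p = 0.0778), and is named after its values were seen. Its adjusted p was 0.0159 with DESeq2, 0.0491 with no filter and 0.0437 with the replicate block, and 0.0573 to 0.282 in the other 11 alternatives. Tox, also named after its values were seen, was at 8.51, 10.9 and 8.61 CPM in WT and at 5.26, 3.80, 2.97 and 7.005 CPM in TET1 KO livers, without overlap (log2 fold change -0.97, adjusted p = 0.0742). Of the 9 regulators, 2 were called lower with no filter and 2 with the replicate block, fits that called 347 and 656 genes lower in all. Nr1i3, the nuclear receptor CAR, was at 422 ± 97.9 and 622 ± 80.0 CPM (SD, log2 fold change 0.56, adjusted p = 0.105). The hepatocyte factors Hnf4a and Foxa2 had log2 fold changes of 0.12 (adjusted p = 0.645) and 0.05 (adjusted p = 0.886), and the sign of each turned when single mice were left out.

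Other sex-biased liver genes were compared with the 9 genes. Both lists were drawn up with earlier results of these data known, so their counts are a description and no independent evidence of direction. Of 15 male-biased genes, 13 were tested, 8 were called higher and 0 lower, against 0.874% and 1.15% of all tested genes, and their median log2 fold change was 1.67. The 8 were Igfbp2, Adgrf1, Susd4, Cyp4a12a, Cyp4a12b, Selenbp2, Cyp7b1 and Capn8. Cyp4a12a, a fatty acid omega-hydroxylase, rose from 51.5, 23.1 and 64.0 CPM to 158, 162, 122 and 146 CPM, at a log2 fold change of 1.67 (SE 0.29, adjusted p = 0.0199). Cyp7b1, the oxysterol 7-alpha-hydroxylase, rose from 69.4, 66.2 and 111.8 CPM to 218, 170.7, 229 and 141 CPM, at a log2 fold change of 1.20 (SE 0.23, adjusted p = 0.0271). Selenbp2 rose from 35.5 ± 21.9 to 316 ± 202 CPM (SD, adjusted p = 0.0264). Adgrf1, at most 3 counts in any WT library, reached 1.80 ± 0.328 CPM (SD, n = 4). Against these, Ugt2b1 and Ugt2b38 had log2 fold changes of -0.20 and -0.58, and neither passed (adjusted p = 0.415 and 0.359). The count of 8 fell to 4 when WT replicate 1, WT replicate 2 or TET1 KO replicate 3 was left out, and to 3 when TET1 KO replicate 2 was.

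Of 32 female-biased genes, 24 were tested, and 6 were called lower and 0 higher, against 1.15% and 0.874% of all tested genes, with a median log2 fold change of -1.07. The 6 were Cd36, Slc22a27, Acot3, Cyp4a14, Ntrk2 and Vldlr. Cd36, Acot3, Cyp4a14 and Vldlr are also known as targets of the PPAR receptors, which sense fatty acids. Cd36, the fatty acid translocase, fell from 160, 199.9 and 107 CPM to 8.77, 22.8, 18.7 and 29.2 CPM, and Ntrk2, a neurotrophin receptor, from 15.9 ± 3.65 to 4.13 ± 1.67 CPM (SD, adjusted p = 0.0156). The steroid hydroxylases Cyp2b9 and Cyp2a4, typical of the female liver, had log2 fold changes of -1.13 and -1.97 and did not pass (adjusted p = 0.107 and 0.0814), and 19 of the 24 genes had a negative log2 fold change in all. The 5 positive values, none of which passed, were 1.42 for Sult1e1, 1.19 for Hamp2, 0.86 for Atp6v0d2, 0.74 for Lifr and 0.28 for Cyp17a1, with adjusted p-values between 0.051 for Lifr and 0.755 for Cyp17a1. Sult1e1 (adjusted p = 0.152) and Lifr were higher in every TET1 KO liver than in any WT liver. The count of 6 fell to 2 when WT replicate 1 or any of TET1 KO replicates 1 to 3 was left out, to 1 when WT replicate 2 was, and to 3 with robust dispersions. Cd36, Igfbp2, Susd4 and Adgrf1 kept an adjusted p under 0.05 in all 7 fits that left out 1 mouse, Cyp4a12a lost it without TET1 KO replicate 2 (0.0527) and Ntrk2 without WT replicate 2 (0.0924), and the other 8 genes of both lists lost it in 4 to 6 of the 7 fits, with adjusted p-values of 0.0924 to 0.228 without WT replicate 2.

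The 7 livers could be ordered by these lists. Relative to the mean of all livers, the male-biased genes averaged -0.89, -1.14 and -0.43 in log2 CPM in WT replicates 1 to 3 and 0.82, 0.58, 0.77 and 0.30 in TET1 KO replicates 1 to 4. The female-biased genes averaged 0.80, 1.05 and -0.13 in WT and -0.92, -0.67, -0.32 and 0.21 in TET1 KO livers. WT replicate 3 and TET1 KO replicate 4 were thus the livers of each group nearest to the other one, as they were for Hsd3b5. Because lists and genes were read in the same livers, this agreement is a description of 7 livers and no further evidence. WT replicate 3 was also the library with the neutrophil markers given above, and TET1 KO replicate 4 had the highest Krt19 and Epcam of the cholangiocyte list, at 6.68 CPM against 0.871 to 1.69 and 4.87 CPM against 0.276 to 0.986 in the other livers. Their part in these values was not tested.

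**Figure D4:**
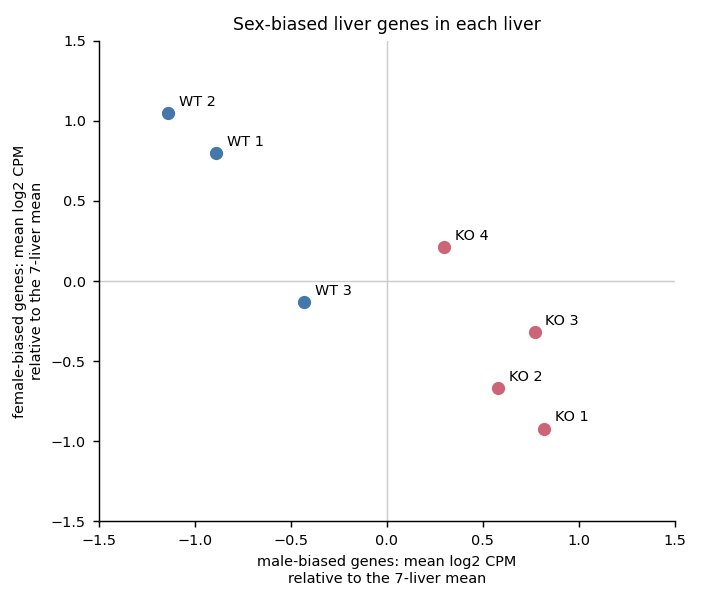
Mean log2 CPM of 13 male-biased genes (horizontal axis) and 24 female-biased genes (vertical axis) in each liver, relative to the mean of the 7 livers, with WT in blue and TET1 KO in red. The groups separate along the horizontal axis, from -1.14 to -0.43 in WT and from 0.30 to 0.82 in TET1 KO livers, and overlap along the vertical axis, where WT replicate 3 lies at -0.13 and TET1 KO replicate 4 at 0.21.

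Since Elovl3 varies with the time of day, 15 clock genes were examined, of which 14 were tested, 3 were called higher and 0 lower, against 0.874% and 1.15% of all tested genes. Per3 rose from 30.3, 25.3 and 23.6 CPM in WT to 67.1, 61.1, 51.4 and 49.7 CPM in TET1 KO livers (log2 fold change 1.12, SE 0.15, adjusted p = 0.0082). Tef and Dbp, transcription factors of the clock output, rose from 140 ± 7.86 to 242 ± 31.6 CPM and from 115 ± 37.8 to 216 ± 10.8 CPM (SD, adjusted p = 0.0224 and 0.0436). Arntl, which peaks in the opposite phase, had a log2 fold change of -0.37 (adjusted p = 0.363). The median log2 fold change of the 14 tested clock genes was 0.19, with 10 positive and 4 negative values, and 11 genes were not called. This list too was drawn up with earlier results of these data known, so its counts are a description. Without WT replicate 2 none of the 3 passed, with adjusted p-values of 0.0604 for Per3, 0.104 for Tef and 0.224 for Dbp. With WT replicate 3 or TET1 KO replicate 3 left out Per3 alone passed, Dbp also lost the call without TET1 KO replicate 1 (0.0701), and both Dbp (0.103) and Tef (0.0614) lost it without TET1 KO replicate 2. With scaling by library size only Dbp did not (adjusted p = 0.0543).

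Relations among the 8 tested genes were described by Pearson's r of log2 CPM over the 7 livers after each genotype mean was subtracted, a measure that shares library and depth between its points. Hsd3b5 and Hao2 moved in opposite directions, with r = -0.63, as did Slco1a1 and Hao2 (-0.74), Prlr and Hsd3b2 (-0.70) and Bcl6 and Cux2 (-0.70). The most positive values were 0.74 for Cux2 with Hsd3b2, 0.65 for Elovl3 with Prlr and 0.58 for Hao2 with Prlr. Hsd3b5 and Slco1a1, both higher in TET1 KO livers, had an r of 0.36 within genotypes, and Hsd3b5 and Hsd3b2 of 0.081. With 7 livers and 14754 genes, values near 1 or -1 were found for every gene of the set. The genes most like Hsd3b5 were Tmed9, Fam104a and Dpysl2 and the least like it Hsd17b11, Gpd1l and Tbc1d31, at 0.98 and -0.98. For Slco1a1 these were Fam222a, Rcc1 and Hnrnpll (0.98 to 0.99) and Limk1, Gm7206 and Brk1 (-0.99 to -0.98). For Hao2 they were Gm34921, Sox7 and Cradd (0.97 to 0.98) and Tbx3, Gimap4 and Klf2 (-0.98 to -0.97). For Elovl3 the nearest were Naglu, Mtnr1a and Mrs2, for Bcl6 Scyl2, Dtx3l and BC031181, for Prlr Lipc, Slc1a4 and Gclm, for Cux2 Gm26549, Zfp862-ps and Hdgfl2, and for Hsd3b2 9930021J03Rik, Gm8798 and Usp48, all at 0.98 or above. The opposite ends held Pcdhgb5, Edc3 and Slc51b for Elovl3, Ramp2, Gm12251 and Lamtor4 for Bcl6, Cyp2d41-ps, Plec and Wdr90 for Prlr, Prkca, Psmd5 and Tm7sf3 for Cux2, and Cox7a2l, Gm5586 and Rpl9-ps7 for Hsd3b2.

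How firmly each of the 8 genes stood can be read from the plot of adjusted p over all fits. Slco1a1 was under 0.05 in 13 of 14 alternative fits, Hao2 in 3, Hsd3b5 in 2, Elovl3 and Hsd3b2 in 1 each, and Bcl6, Prlr and Cux2 in 0. The sign of the fold change was the same in all 14 alternatives for Slco1a1, Hsd3b5, Hao2, Elovl3, Hsd3b2 and Bcl6.

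**Figure D5:**
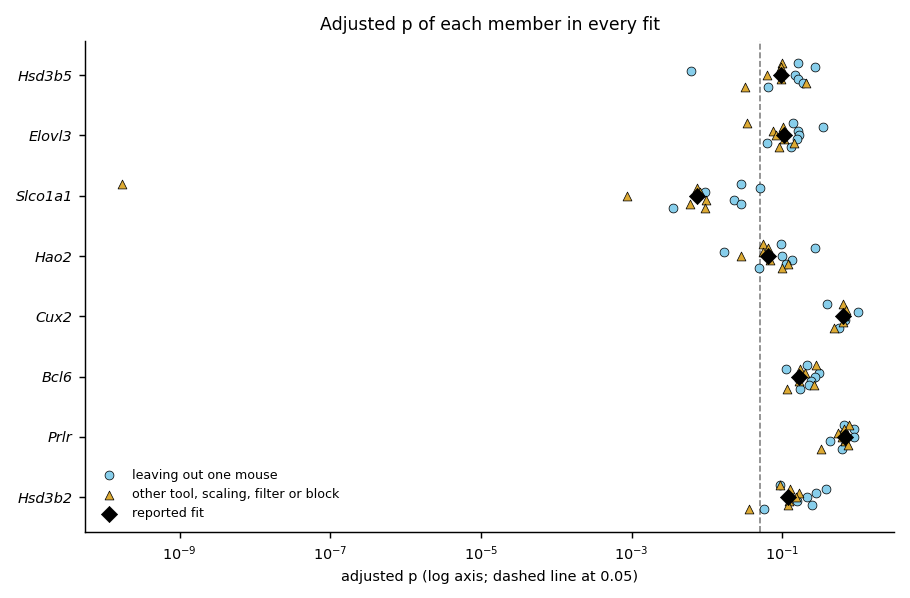
Adjusted p (log axis) of the 8 tested genes in the reported fit (black diamonds), in the fits that left out 1 mouse (blue circles) and in the fits with another tool, scaling, filter, dispersion or block (yellow triangles), with a dashed line at 0.05. Slco1a1 lies left of the line except without WT replicate 2, where it is at 0.0501. Hsd3b5, Hao2, Elovl3 and Hsd3b2 lie right of the line in most fits, at up to 0.272, 0.272, 0.344 and 0.382.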

How the data were processed

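RNA of 7 livers, from 3 WT and 4 TET1 KO mice, was sequenced from stranded libraries. The authors deposited raw read counts per gene for each mouse, without normalization. Per the submitters' processing notes, reads were trimmed with Trimmomatic 0.36, aligned to GRCm38 with GSNAP and counted with featureCounts 1.5.3. The counting options, strand setting and annotation release are not given in the sources used here, so counts of close paralogs and of overlapping or antisense genes are uncertain. The labels name both poly(A) selection and rRNA removal without saying which served which library. Library sizes were 15005277 to 22746138 counts.

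Tables were joined by Ensembl identifier, since 26 symbols differed between tables, and 5 repeated entries were left out, leaving 51426 genes. The test was run with edgeR 4.0.16 under R 4.3.3 (filterByExpr, TMM, glmQLFit with legacy = FALSE and robust = FALSE, no covariates) over 14754 genes, with Benjamini-Hochberg adjustment and a threshold of 0.05. Each SE is the absolute log2 fold change divided by the square root of F. For the spread, 2 was added as prior count before the logarithm of CPM. The floor was set at 3 counts per library, and a gene that failed the filter was tested by an exact permutation of its CPM. The edgeR and DESeq2 1.42.0 fits were tried before use on simulated data in which every gene had the same dispersion. Spread differs between genes in these livers, so that trial says nothing of genes with large spread. No pair of libraries of one genotype differed by as little as sampling noise (lowest chi-square per degree of freedom 25.0). The labels do not say whether cage or litter was shared, and the edgeR p-values set the genotype difference against the spread between these mice.

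The 9 genes and all lists were chosen with earlier results of these data known. One of the regulators first listed is not reported here, and the list's counts leave it out. Named from the lists are genes with an adjusted p under 0.05 and, where fewer than 3 passed, the 3 of highest mean CPM, together with the 3 highest and 3 lowest correlates of each gene, Tet1 and the closest paralogs. Cish, Socs2, Socs3, Stat5b, Esr1, Hao1, Lifr, Hamp2, Sult1e1, Atp6v0d2, Cyp17a1, Onecut1, Tox, Apoa1, Serpina1a, Krt19, Epcam, Adipoq, Plin1, Cyp2b9, Cyp2a4, Ugt2b1, Ugt2b38 and Arntl were named after their values were seen. Promoters and gene positions are from RefSeq (GRCm38.p6). Exon lengths and coding identities are from GENCODE M1, whose genome build is older, and no coordinates were taken from it. Alternatives were DESeq2, RLE size factors, library size only, no filter, a minimum of 10 counts in all libraries, robust dispersions, a replicate block, a prior count of 0.5 for the spread and leaving out each mouse in turn. Plots were made in Python 3.11 with matplotlib 3.10.9.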

Additional observations from a re-analysis of the deposited data

Results flagged for a closer look

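Among 65 genes named for their levels or fold changes and 9 marker lists, a single TET1 KO liver stood far from the other 3 in 9 cases, judged by its gap to the nearest liver as a share of the range of the group, and set against the 95% critical value of Dixon's test. Chance marks about 1 in 20 groups, or about 3.7 of those examined. Genes of the same liver are not independent, and Krt19, Epcam, Adipoq and Plin1 are named because of the liver that stands apart. In TET1 KO replicate 1 the share was 0.968 for Cish and 0.860 for Socs3, both inhibitors of cytokine signalling, at 41.8 and 37.1 CPM. In TET1 KO replicate 4 it was 0.876 for Acot3, an acyl-CoA thioesterase, at 7.33 CPM, 0.839 for Cyp17a1, a steroid hydroxylase, at 15.9 CPM, 0.888 for Krt19 and 0.929 for Epcam. In TET1 KO replicate 2 it was 0.976 for the summed adipocyte markers, 1.000 for Adipoq and 0.987 for Plin1, at 4.23 and 4.93 CPM, where no other library exceeded 0.373 and 0.166 CPM. None of the 9 growth hormone pulse-responsive genes reached the critical value among the TET1 KO livers.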

How the results depend on the processing

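Slco1a1 kept its direction in all 14 alternatives, with log2 fold changes of 1.56 to 1.88 when each mouse was left out, and its adjusted p was between 1.73e-10 and 0.0501. The number of the 9 genes called, 1 as reported, was 2 with DESeq2, 2 with no filter on low counts, 3 with the replicate block, and 0 to 3 when a mouse was left out. Genes called higher, 129 as reported, numbered 633 with DESeq2, 245 with no filter and 670 with the replicate block. They numbered 16 to 427 with a mouse left out. Genes called lower, 169 as reported, numbered 699 with DESeq2, 312 with library size only and 347 with no filter. They numbered 656 with the replicate block and 22 to 464 with a mouse left out. Among the fits that left out a mouse, both counts were lowest without WT replicate 2 and highest without TET1 KO replicate 4. The male-biased genes called higher ranged from 3 to 8 with a mouse left out. The female-biased genes called lower ranged from 1 to 8, and 3 passed with robust dispersions. Of the same list, 1 gene was called higher with DESeq2, with no filter and with the replicate block, and 0 to 1 with a mouse left out. The clock genes called higher, 3 as reported, numbered 6 with DESeq2, 5 with the replicate block and 0 to 5 with a mouse left out. The sign turned in genes that were not called. Prlr ranged from -0.49 to 0.04, Igf1 from -0.0223 to 0.154, Hnf4a from -0.0159 to 0.18, Foxa2 from -0.12 to 0.22 and Cish from -2.13 to 1.00 in log2 fold change with a mouse left out. With library size only, Igf1 was at -0.0214 and Foxa2 at -0.0361. The causes were not tested. Fits that left out a mouse also had fewer mice.

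The replicate numbers are shared by the groups, and whether they pair the mice is not known. Same-numbered WT and TET1 KO livers correlated at 0.21, -0.12 and -0.10 in their deviations from the group means. Of these WT livers, replicate 1 alone correlated best with its own number. With so few livers, deviations from the group means constrain one another, so these correlations cannot decide the question. With the replicate number as a block, 670 genes were called higher and 656 lower, and Hsd3b5 (adjusted p = 0.0315) and Hsd3b2 (0.0364) joined Slco1a1, while Cish turned to -0.428. TET1 KO replicate 4 has no WT liver of its number and adds nothing to the genotype difference in that fit.

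At 3 WT and 4 TET1 KO mice and these depths, the unadjusted 95% intervals of Hsd3b5, Hao2, Elovl3, Hsd3b2 and Bcl6 did not include a log2 fold change of 0, but none of these genes passed adjustment over all genes. Cux2 and A1bg were too low for a statement in either direction. Cux2 had no value in 5 of the 14 alternatives, namely DESeq2, a minimum of 10 counts, and the fits without TET1 KO replicate 1, 3 or 4.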
